A study of Mus musculus with 8 samples.

Results

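The interferon regulatory factors (IRFs) and the signal transducers and activators of transcription (STATs) are families of transcription factors, and 9 of their genes, Irf1, Irf2, Irf3, Irf5, Irf7, Irf8, Irf9, Stat2 and Stat3, were followed in the hippocampus of young and aged mice. The genes were taken by name, with earlier results of these data known, so counts over them are descriptions. Every non-control probe whose RefSeq accession belongs to one of them was kept, whatever its values. The members made up 9 of the 19751 named genes and 11 of the 39429 probes on the array. Irf1 and Stat3 had 2 probes each, and each of the other 7 genes had 1 probe. All 11 probes were well above the local background on at least 3 arrays of both groups, so that none was lost to a filter on dim spots. The hippocampi were dissected by hand from wild type C57BL/6J mice that received no treatment and aged in their home cages. By the study's methods, its oldest mice were bought from a supplier when already aged and then kept on site for some months. The 4 mice labelled 3M were 3 months old and the 4 labelled 29M were 29 months old, and the labels name no other difference between the groups. RNA of each sample was labelled with Cy3 and hybridised to 1 array, and the 8 arrays lay on 3 slides. The question put to the data was which of these factors differ in RNA level between the ages, and how their known target genes behave beside them.

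Between 76.2% and 85.0% of the spots on an array were well above background, and no spot was saturated. Replicate 1 of 3M had the lowest share, and the quality summary of its scan asked for evaluation, unlike those of the other 7. All 12 neuronal and all 10 astrocytic marker genes on the array were well above background on all 8 arrays. The same held for all 6 choroid plexus and all 3 red blood cell markers, so detection alone does not check the tissue label. The sample was whole tissue, so for every gene below fewer cells of a type and less RNA per cell cannot be told apart.

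IRFs read out infection and tissue damage. Receptors and sensors for foreign or misplaced nucleic acids activate IRF3 and IRF7, which switch on the genes of type I interferons. Interferons bind receptors whose Janus kinases phosphorylate STAT proteins. STAT2 then joins IRF9 and a further STAT protein in a complex called ISGF3, which binds interferon-stimulated response elements (ISREs) in the promoters of antiviral genes. Interferon gamma acts through STAT sites known as gamma-activated sites (GAS) and induces IRF1, whereas IRF2 competes with IRF1 at shared sites. IRF8 and IRF5 work in myeloid cells, which in brain are mostly microglia. STAT3 transmits signals of cytokines of the interleukin-6 type and is known for its part in reactive astrocytes.

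Irf7 and Irf8 were higher at 29M, Irf5 was close to the thresholds, and the other 6 genes did not pass the test. A gene was called when its adjusted p in limma, with Benjamini-Hochberg adjustment over all 39408 tested probes, was under 0.1 and its log2 change was at least 0.5 either way, which is 1.414-fold. By this rule 2 of 9 genes were higher and 0 were lower, whereas 1.58% of all 19742 tested genes were called higher and 0.689% lower. Counted by probe, 2 of 11 were higher and 0 lower, beside 1.25% and 0.809% of all tested probes. Among the 9 genes 3 had an unadjusted p under 0.05 in limma, against 17.1% of all genes. The log2 change was above 0 in 9 of 9 genes, beside 52.9% of all genes, and its median was 0.23 beside 0.01 over all genes. These shares describe 9 genes that were not drawn at random. A gene with 2 probes is represented in these counts by its brighter probe.

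**Figure D1:**
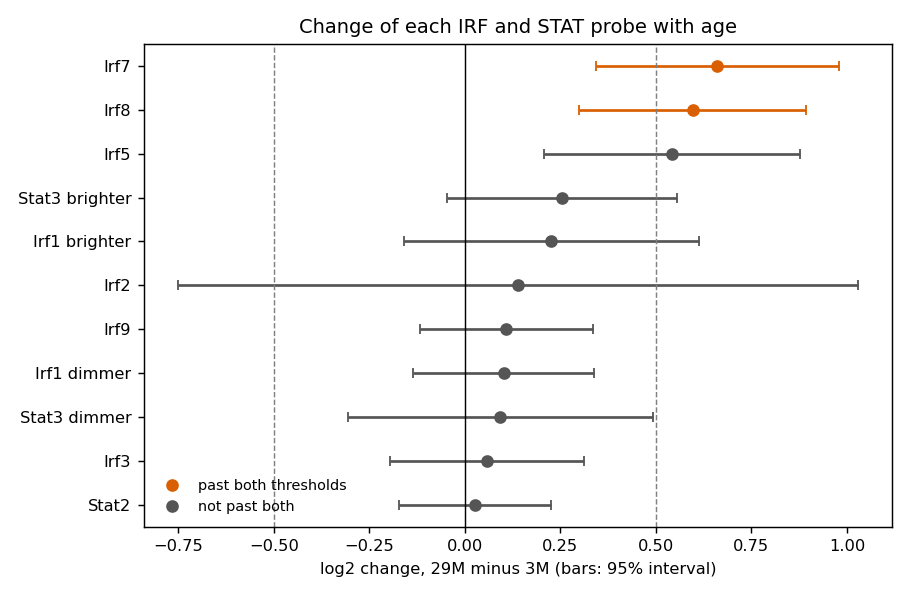
Log2 change between 29M and 3M of each of the 11 IRF and STAT probes, with its 95% interval from limma (4 arrays per group). Dashed lines stand at a log2 change of 0.5 either way, and orange marks the probes past both thresholds, Irf7 and Irf8. The interval of Irf2 is the widest of all, and those of Irf3, Irf9, Stat2 and the dimmer probes of Irf1 and Stat3 lie between the dashed lines.

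The promoter windows of the members differ in the exact motif letters of their own families that they hold. The windows run from 250 bases before to 50 bases after an annotated start of transcription (RefSeq, GRCm38.p6), and 12 such windows were found for the 9 genes. They were searched on both strands for the core of an ISRE, which is GAAA, any 2 bases and GAAA again, and for the GAS, which is TTC, any 3 bases and GAA and reads alike on both strands. The letters of the motifs do not overlap in any member's window. The ISRE core occurs in 3.44% of all 32851 promoter windows and the GAS in 8.3%. The windows of the called genes Irf8 and Irf7 are printed whole, 5′ to 3′ on the strand of the gene, with matches in capitals. The Irf8 window (chr8:120736108-120736407, plus strand) holds a GAS with its first base at -171 from the start and another at -153. The Irf7 window (chr7:141266375-141266674, minus strand) has no match to either set of letters.
Irf8: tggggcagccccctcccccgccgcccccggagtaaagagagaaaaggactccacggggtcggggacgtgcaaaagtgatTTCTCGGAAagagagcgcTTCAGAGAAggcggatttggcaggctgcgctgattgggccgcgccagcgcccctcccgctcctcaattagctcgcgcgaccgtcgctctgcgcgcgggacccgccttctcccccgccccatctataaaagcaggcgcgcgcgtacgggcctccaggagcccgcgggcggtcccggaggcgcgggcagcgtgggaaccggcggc
Irf7: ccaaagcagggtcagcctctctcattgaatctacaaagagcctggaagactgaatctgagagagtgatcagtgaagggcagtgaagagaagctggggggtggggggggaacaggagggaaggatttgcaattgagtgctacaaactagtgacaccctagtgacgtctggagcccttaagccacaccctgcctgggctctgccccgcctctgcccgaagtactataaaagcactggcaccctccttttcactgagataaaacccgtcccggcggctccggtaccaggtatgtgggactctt
Shorter stretches are shown for the other 3 genes with a match. Irf1 has a GAS at -90 from its start (stretch chr11:53769909-53769947), Irf2 has an ISRE core at -241 and a GAS at -224 (chr8:46739495-46739544), and Stat2 has an ISRE core, on the opposite strand, at -222 (chr10:128270261-128270300). All 3 genes lie on the plus strand.
Irf1: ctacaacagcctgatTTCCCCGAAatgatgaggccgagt
Irf2: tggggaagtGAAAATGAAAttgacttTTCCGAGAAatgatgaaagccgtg
Stat2: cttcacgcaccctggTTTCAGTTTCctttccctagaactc
The windows of Irf3, Irf5, Irf9 and Stat3, and the other window of Irf1 and of Irf8, hold neither set of letters. A match is a description of the letters and shows no binding, and a missing match does not show that a site is absent.

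Irf7, whose protein drives the amplification of type I interferon and is itself induced by interferon, was higher at 29M. Its normalized log2 intensity was 7.02, 6.94, 6.61 and 6.97 in replicates 1 to 4 of 3M and 7.76, 7.71, 7.50 and 7.21 in replicates 1 to 4 of 29M. All 29M arrays lay above all 3M arrays. The means were 6.88 ± 0.19 and 7.54 ± 0.25 (SD, n = 4 each), a log2 change of 0.66 with a standard error of 0.14 and a 95% interval of 0.34 to 0.98, or 1.58-fold (limma, adjusted p = 0.0575). The probe was dim, at 111 to 137 scanner units on the 3M arrays and 149 to 234.5 on the 29M arrays. The size of the change depended on the processing: with the background-subtracted signal scaled to the 75th percentile it was 1.02 (adjusted p = 0.0899), and with normexp background correction and quantile normalization it was 0.50 (adjusted p = 0.0599). Within the 3 slides, each of which held both ages, the change was 0.34, 0.76 and 0.97. Irf7 was no longer called without replicate 2, 3 or 4 of 3M or without replicate 1 or 2 of 29M (adjusted p between 0.1004 and 0.159 in limma), while its change stayed between 0.57 and 0.77 with any array left out. With slide as a fixed block the adjusted p was 0.107.

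Irf3, the partner of IRF7 that is present before any stimulus, gave values of 13.79, 13.89, 13.97 and 13.95 at 3M and of 14.00, 14.03, 14.15 and 13.65 at 29M. The lowest and the highest of the 8 arrays were both 29M arrays, and the groups overlapped. The log2 change was 0.06 with a 95% interval of -0.20 to 0.31 (limma, adjusted p = 0.846), so a change as large as the 0.5 threshold lies outside the interval. Its sign turned when the processed signal was used (-0.02 on a plain log2 scale and -0.01 after variance stabilisation) and without replicate 3 of 29M (-0.01). Leaving out replicate 1 of 3M gave 0.02, leaving out replicate 2 of 29M gave 0.03 and leaving out replicate 4 of 29M gave 0.16.

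The changes of partners were also set against each other within each array, where a shift of the whole array cancels, for 4 pairs of members. Irf7 minus Irf3 ranged from -7.36 to -6.78 on the 3M arrays and from -6.65 to -6.23 on the 29M arrays, without overlap. Irf7 thus changed by 0.60 more than Irf3 (95% interval 0.23 to 0.98), with a two-sided exact permutation p of 0.0286, the smallest that 4 against 4 arrays allow, and 0.114 after Benjamini-Hochberg adjustment over the 4 pairs. No adjusted value under 0.05 can be reached unless at least 3 of the 4 pairs separate completely. For Irf8 minus Irf5 the difference between the ages was 0.05 (95% interval -0.26 to 0.37, adjusted exact p = 0.876), and for Irf9 minus Stat2 it was 0.08 (95% interval -0.13 to 0.29, adjusted exact p = 0.800). Irf1 minus Irf2 differed by 0.09 with a wide interval of -1.57 to 1.74 (adjusted exact p = 0.914).

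**Figure D2:**
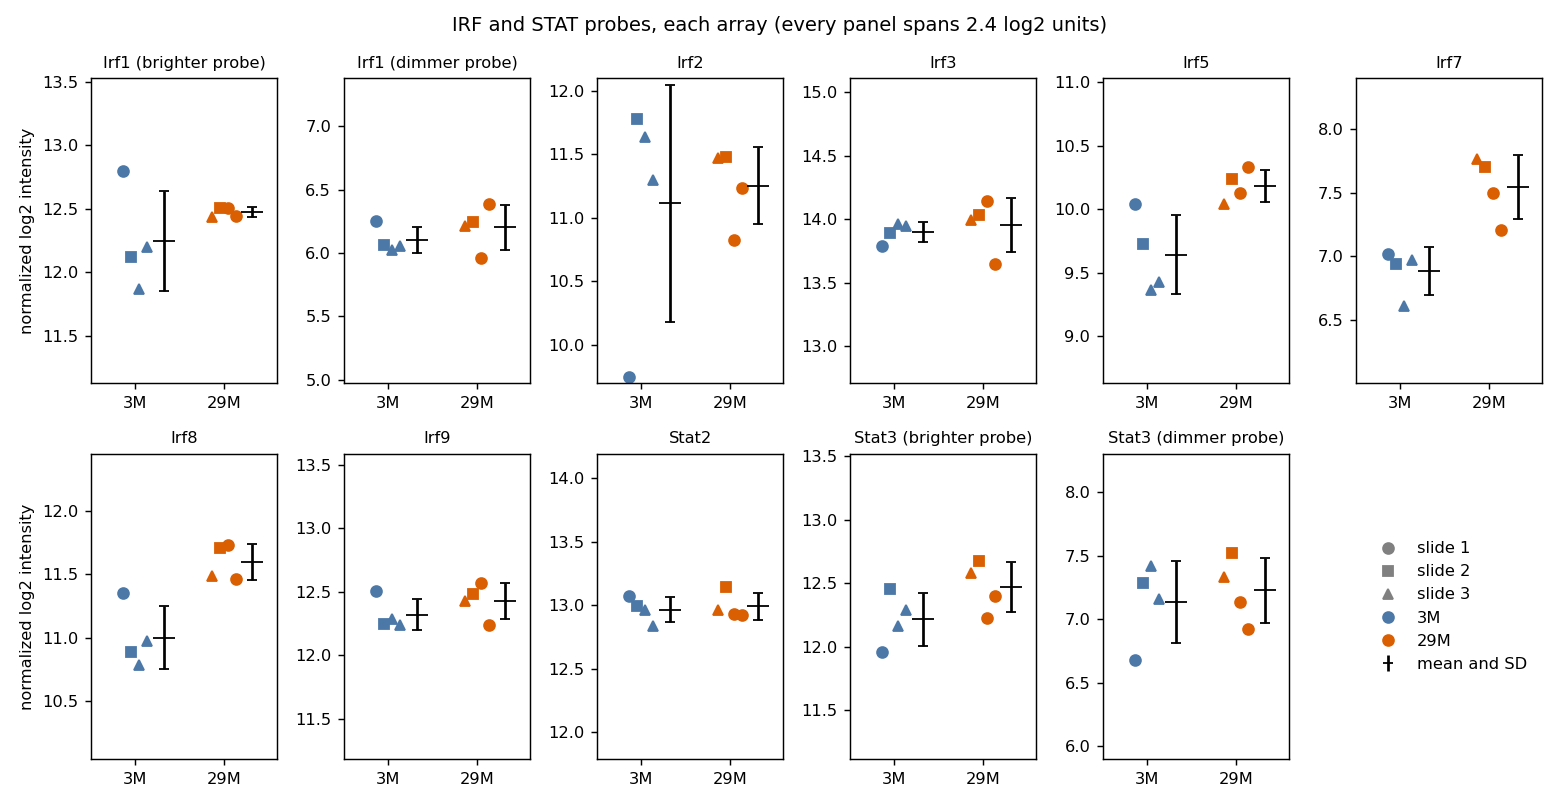
Normalized log2 intensity of the 11 probes on each array (blue 3M, orange 29M, 4 arrays each; the symbol gives the slide), with the mean and SD of each group in black; every panel spans 2.4 log2 units around its own centre. The groups do not overlap for Irf5, Irf7 and Irf8, and replicate 1 of 3M stands apart for Irf2 and Irf1.

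Irf8, which specifies microglia and other myeloid cells, was higher at 29M. Its values were 11.35, 10.89, 10.79 and 10.97 at 3M and 11.48, 11.70, 11.73 and 11.46 at 29M. The groups did not overlap, and replicate 1 of 3M came closest to the 29M arrays. The SD was 0.25 at 3M and 0.14 at 29M (n = 4 each), and the log2 change was 0.60 with a standard error of 0.13 and a 95% interval of 0.30 to 0.89, or 1.51-fold (limma, adjusted p = 0.0637). The change was 0.25 within slide 1, which holds replicate 1 of 3M, and 0.81 and 0.60 within slides 2 and 3. Without replicate 1 of 3M it was 0.71 (adjusted p = 0.00996). Without any other array it lay between 0.52 and 0.64 and was no longer called, with adjusted p between 0.110 and 0.180 in limma, and with slide as a fixed block the adjusted p was 0.125.

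Irf5, which acts downstream of Toll-like receptors in macrophages and microglia, came close to being called. It measured 10.04, 9.73, 9.37 and 9.43 at 3M and 10.04, 10.24, 10.13 and 10.33 at 29M. The groups did not overlap, although replicate 1 of 3M and replicate 1 of 29M differed only in the third decimal. The log2 change was 0.54 with a standard error of 0.15 and a 95% interval of 0.21 to 0.88, or 1.46-fold, and the adjusted p of 0.117 missed the threshold (limma). Within the slides the change was 0.19, 0.51 and 0.65. Without replicate 1 of 3M the change was 0.68 and Irf5 was called (adjusted p = 0.0205). Separate groups with the higher values at 29M were found for Irf5, Irf7 and Irf8, 3 of 9 genes and 3 of 11 probes, beside 6.34% of all genes and 5.52% of all probes. Separate groups with the lower values at 29M were found for 0 of 9, beside 5.21% of all genes.

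**Figure D3:**
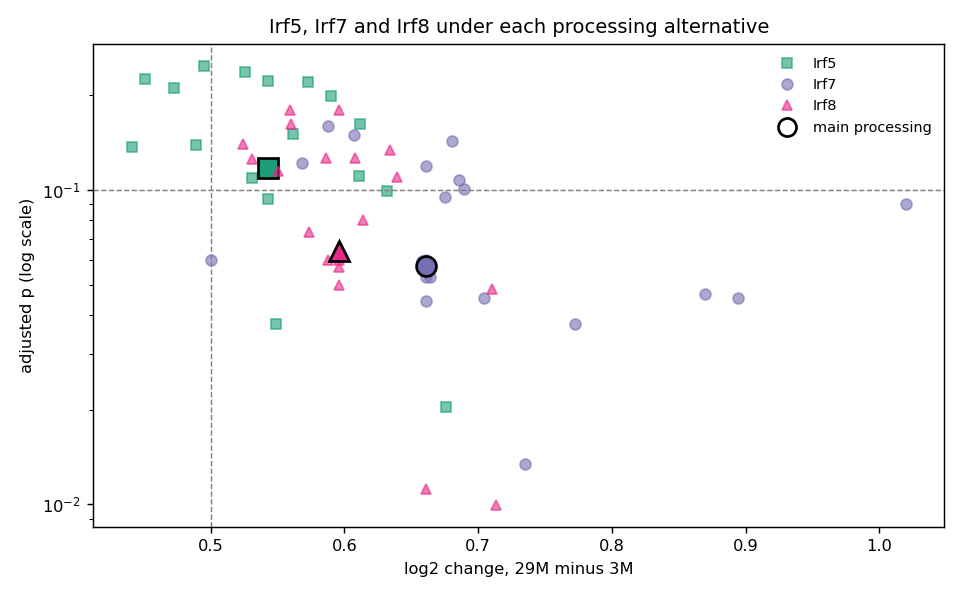
Log2 change (x axis) against adjusted p (y axis, log scale) of Irf5, Irf7 and Irf8 in the main processing (large outlined symbols) and in each alternative (small symbols), with dashed lines at both thresholds. All changes lie above 0.44, and the adjusted p of each gene falls on both sides of 0.1.

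The microglial marker list moved in the same direction as Irf8 and Irf5. Of its 21 genes on the array, all well above background on every array, 5 were called higher (Trem2, Tyrobp, C1qa, C1qb and Ctss), 0 were called lower and 18 had a change above 0, with a median log2 change of 0.36. Over all tested genes 1.58% were called higher, 0.689% were called lower and 52.9% had a change above 0. The mean level of the list, each gene centred on its mean over the 8 arrays, ranged from -0.31 to -0.0240 at 3M and from -0.0243 to 0.27 at 29M. The groups thus overlapped slightly. Of the border macrophage and monocyte markers 0 of 7 were called, with a median of 0.25. Among the T, B and plasmacytoid cell markers 2 of 11 were called, Cd3d by 0.96 and Cd8a by 0.71. A change above 0 was found for 6 of these 11, and their median was 0.07. The probes of Cd3d and Cd8a were dim, with mean log2 intensities of 6.29 and 6.21 at 3M. That of Cd8a was well above background on 3 of the 4 3M arrays. Of the astrocytic markers 1 of 10 was called (Gfap). No gene was called among 12 neuronal, 8 oligodendrocytic, 8 endothelial, 6 choroid plexus and 3 red blood cell markers, whose medians were 0.02, 0.16, 0.08, 0.12 and -0.34. The part of cell composition in the changes of Irf5, Irf7 and Irf8 was not tested.

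The members of ISGF3 showed little change. Irf9 measured 12.50, 12.25, 12.29 and 12.24 at 3M and 12.42, 12.48, 12.57 and 12.23 at 29M, with the lowest array at 29M. Its log2 change was 0.11 (95% interval -0.12 to 0.33, limma adjusted p = 0.633). It was 0.06 without replicate 3 of 29M, and leaving out either replicate 1 of 3M or replicate 4 of 29M gave 0.17. Stat2 measured 13.07, 12.99, 12.96 and 12.83 at 3M and 12.96, 13.15, 12.93 and 12.93 at 29M, and the values of the groups were interleaved. Its log2 change was 0.03 (95% interval -0.17 to 0.23, limma adjusted p = 0.912), and it turned to -0.03 without replicate 2 of 29M and to -0.02 without replicate 4 of 3M. The intervals of both genes exclude a change of 0.5 in either direction, which holds for 3 of the 9 members, Irf3 being the other.

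Irf1, which is induced by interferon gamma, did not pass the test. Its brighter probe gave 12.80, 12.12, 11.87 and 12.20 at 3M and 12.44, 12.51, 12.51 and 12.44 at 29M. Replicate 1 of 3M was the highest of all 8 arrays and the other 3M arrays were the lowest, so the 29M arrays lay between them. The SD was 0.40 at 3M and 0.04 at 29M, and the log2 change was 0.23 (95% interval -0.16 to 0.61, limma adjusted p = 0.546). Without replicate 1 of 3M the change was 0.41 and the adjusted p 0.0617, short of the fold threshold, and without replicate 3 of 3M the change was 0.10. Within slide 1 the change was -0.33, and within slides 2 and 3 it was 0.39 and 0.40. The dimmer probe, at 66 to 91.5 scanner units, changed by 0.10 (limma, adjusted p = 0.672).

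Irf2, which competes with IRF1 at its sites, had the widest spread of the members. It measured 9.75, 11.78, 11.63 and 11.29 at 3M and 11.47, 11.48, 10.83 and 11.24 at 29M. Replicate 1 of 3M lay far below every other array, and the remaining values of the groups overlapped. The log2 change was 0.14 with a 95% interval of -0.75 to 1.03 (limma, adjusted p = 0.896), and without replicate 1 of 3M it was -0.31, with an adjusted p of 0.363. No direction can be given for Irf2 in these samples.

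Stat3, the factor of the interleukin-6 family of cytokines, did not pass the test either. Its brighter probe, the mean of 10 spots, gave 11.96, 12.45, 12.17 and 12.29 at 3M and 12.58, 12.68, 12.22 and 12.40 at 29M. The highest values were those of replicates 1 and 2 of 29M, and the groups overlapped. The log2 change was 0.25 with a 95% interval of -0.05 to 0.55 (limma, adjusted p = 0.376), so neither no change nor a change of 0.5 lies outside it. It was 0.17 without replicate 1 of 3M and between 0.18 and 0.34 without any of the other arrays. The change was 0.36, 0.23 and 0.35 within the 3 slides. The dimmer probe, at 110 to 208 scanner units, changed by 0.09 (adjusted p = 0.839).

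The other genes of the pathway were followed in 10 lists, arranged from the signal to the target. Over all tested genes 1.58% were called higher, 0.689% were called lower and 17.1% had an unadjusted p under 0.05 in limma. Of 20 ligands, interferons and cytokines of the interleukin-6 type, 0 were called and the median log2 change was -0.02. An unadjusted p under 0.05 in limma was found for 3 of 20, close to the share over all genes. The change farthest from 0 was that of Ifng, at -0.49 (adjusted p = 0.237), and it was -0.29 without replicate 1 of 3M. Il6, a cytokine that signals through STAT3, is named here after its values were seen. Its change was 0.46 with an adjusted p of 0.0687 in limma, under the p threshold but short of the fold threshold. All its 29M arrays lay above its 3M arrays, which held for 6.34% of all genes. The Il6 probe was dim, at 5.97 to 6.39 at 3M and 6.50 to 6.73 at 29M. It was well above background on 3 of the 4 3M arrays. Of the 20 ligand probes 13 were well above background on all arrays of at least 1 group. Of 13 receptor genes, Osmr, the receptor of oncostatin M, rose by 0.82 (limma, adjusted p = 0.0154), and Cntfr, the receptor of ciliary neurotrophic factor, fell by 2.08 (adjusted p = 0.0106). Both receptors act through STAT3. Of the 4 Janus kinases 0 were called and 0 had an unadjusted p under 0.05 in limma, and the change farthest from 0 was -0.20 for Tyk2. Of 6 further IRF and STAT genes 0 were called, with 1 at an unadjusted p under 0.05. The change farthest from 0 was -0.37 for Stat4, which read 9.07 on replicate 1 of 3M and 7.83 to 8.12 on the other 3M arrays, and without that array its change was -0.09.

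Among 24 sensors, adaptors and IRF kinases 3 were called higher and 0 lower, beside 1.58% and 0.689% of all genes. Ifih1 (MDA5) and Ddx58 (RIG-I), sensors of double-stranded RNA, rose by 0.75 and 0.67, and Unc93b1, which carries nucleic acid receptors to endosomes, rose by 0.67 (adjusted p between 0.0411 and 0.0802 in limma). Among 19 inhibitors 2 were called higher and 0 lower. These were Usp18, which restrains the type I interferon receptor, at 1.31 (adjusted p = 0.0198), and Socs3, which restrains STAT3 signalling, at 1.17 (adjusted p = 0.0151). Among 11 partners of IRF8 in myeloid cells, only Batf3 was called, at 0.81 (adjusted p = 0.0548), and its call was lost without replicate 2, 3 or 4 of 3M or replicate 1, 2 or 4 of 29M. The sensor count fell to 0 without replicate 2 of 3M or without replicate 1 or 2 of 29M, and it was between 1 and 4 with another array left out.

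Targets of ISGF3 gave the most calls. Of 28 genes on the array 12 were higher (42.9%) and 0 lower, beside 1.58% and 0.689% of all genes, and the median log2 change was 0.59. Ifi27l2a, an interferon-inducible protein of mitochondria, rose by 2.19 (4.58-fold, adjusted p = 0.00387), and Ifit1, which binds foreign RNA caps, rose by 1.42 (2.67-fold, adjusted p = 0.00557). Rtp4 rose by 1.34 and Oas1a, which makes the activator of RNase L, by 1.31 (adjusted p = 0.0142 and 0.0551). The other 8 were Lgals3bp, Bst2, Ifit3, Oasl2, Xaf1, Oasl1, Ifi27 and Ifi35, with log2 changes from 0.59 upward. Beside these, Irf9 and Stat2, the parts of ISGF3 followed here, changed by 0.11 and 0.03. The count was 20 without replicate 1 of 3M, 12 without replicate 4 of 29M, and 6 or 7 without any of the other arrays.

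Targets of STAT3 also held many called genes while Stat3 itself was not called. Of 24 genes 7 were higher (29.2%) and 0 lower, beside 1.58% and 0.689% of all genes, with a median log2 change of 0.31. Bcl3, a partner of NF-kappaB, rose by 1.81 (3.51-fold, adjusted p = 0.0273), Timp1, an inhibitor of metalloproteinases, by 1.25 (adjusted p = 0.0681) and Socs3 by 1.17. The intermediate filament genes Vim and Gfap rose by 0.98 and 0.71, Serpina3n by 0.96 and Osmr by 0.82. Socs3 and Osmr also stand in the lists of inhibitors and receptors. The count lay between 5 and 7 when any array was left out.

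**Figure D4:**
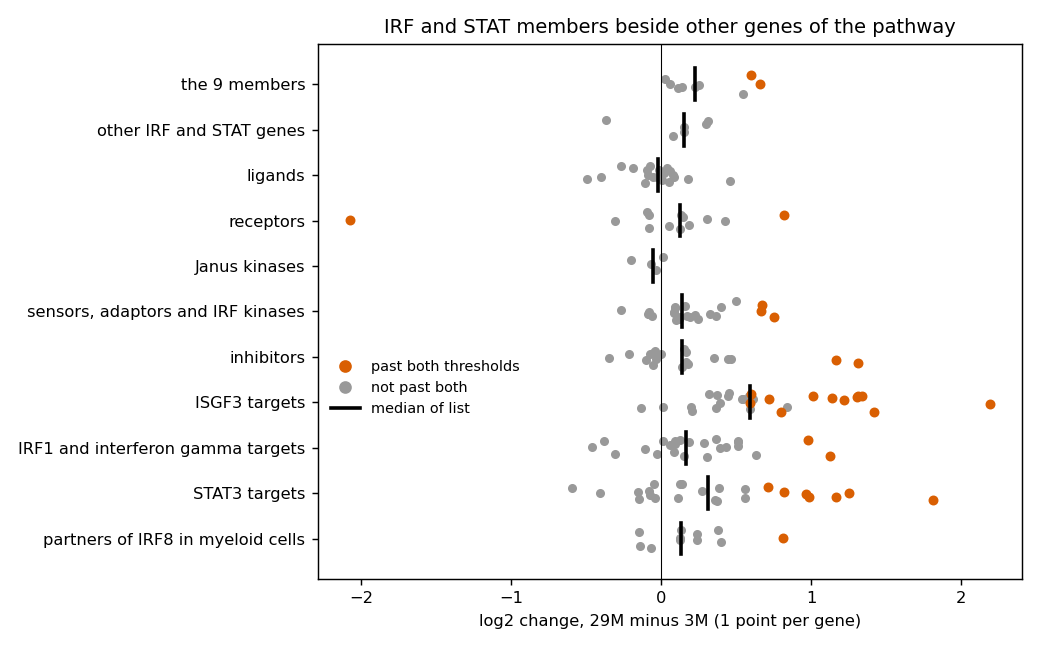
Log2 change between 29M and 3M of the 9 members and of the genes of 10 pathway lists (1 point per gene, some genes in more than 1 list); orange points passed both thresholds and black bars are list medians. The medians are 0.59 for the ISGF3 targets, 0.31 for the STAT3 targets and 0.23 for the members, and those of the other lists lie between -0.05 and 0.17.

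Targets of IRF1 and interferon gamma behaved otherwise, and replicate 1 of 3M carried high levels of many of them. Of 24 genes 2 were called higher, Cxcl10 by 1.12 (adjusted p = 0.0448) and Casp1 by 0.98 (adjusted p = 0.0718), and 0 were lower, with a median of 0.17. Over all genes 1.58% were called higher and 0.689% lower. Replicate 1 of 3M was the highest of the 8 arrays in 15 of the 24 genes (62.5%), against 18.2% of all genes measured on every array, and in 12 of the 24 its value was more than 1 log2 unit above the mean over replicates 2 to 4 of 3M, which held for 1.19% of all genes. The genes that follow were picked after their values were seen, the first 5 being those with the widest gaps. Gbp4, a guanylate-binding protein, read 12.56 on this array, 8.48 to 9.84 on the other 3M arrays and 9.01 to 9.69 on the 29M arrays. Igtp, an immunity-related GTPase, read 13.06 against 10.51 to 10.94 and 11.27 to 11.62, Gbp3 read 12.60 against 9.98 to 10.68 and 10.59 to 11.71, and Gbp2 read 12.67 against 10.12 to 10.81 and 10.90 to 11.65. Irgm2, another immunity-related GTPase, read 12.62 against 10.34 to 10.77 and 10.93 to 11.34. Psmb8 and Psmb9, subunits of the immunoproteasome, exceeded the other 3M arrays by 1.62 and 1.58. Without this array 11 of the 24 genes were called higher, and 0 or 1 without any other array.

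The same array was compared over the other lists. Its mean level over the IRF1 and interferon gamma targets, each gene centred on its mean over the 8 arrays, was 0.74, whereas the other 3M arrays lay between -0.52 and -0.32 and the 29M arrays between -0.05 and 0.27. Over the ISGF3 targets it was -0.0013, above the other 3M arrays (-0.62 to -0.33) and below the 29M arrays (0.12 to 0.50). Over the STAT3 targets it was -0.28, and the other 3M arrays ran from -0.29 to -0.05. Ifng read 7.36 on it, 6.37 to 6.80 on the other 3M arrays and 6.22 to 6.33 on the 29M arrays. Among the members, this array was the highest for Irf1 and the lowest for Irf2 and Stat3, and it was the highest of the 3M arrays for Irf5, Irf7, Irf8, Irf9 and Stat2. Nothing in the labels sets this mouse apart, and what distinguishes it was not tested.

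**Figure D5:**
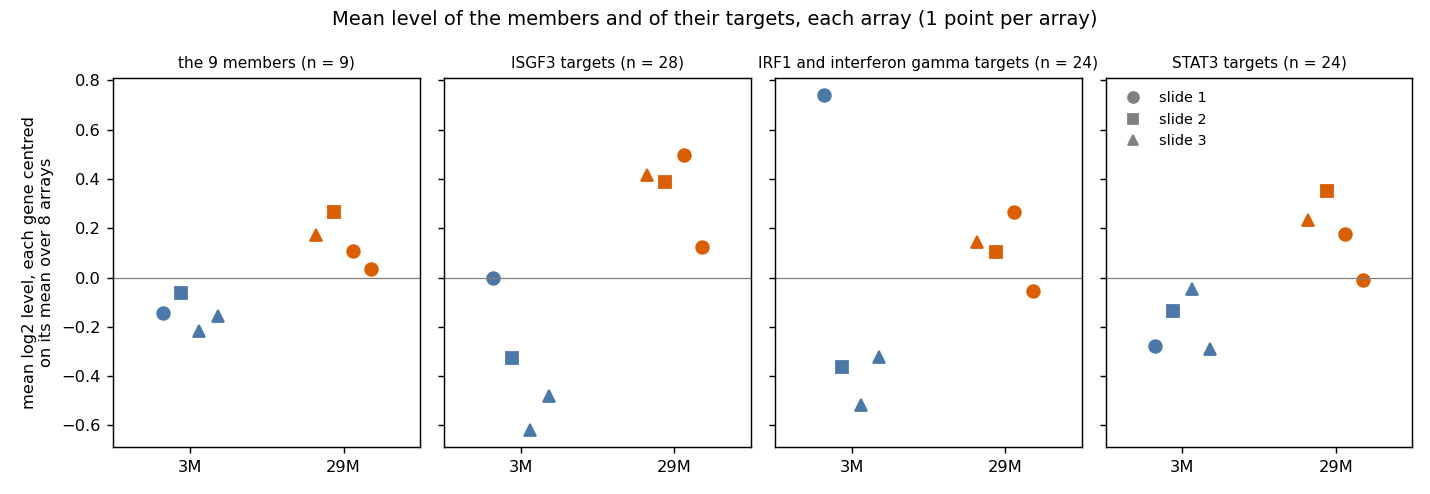
Mean log2 level of the 9 members and of 3 target lists on each array, each gene centred on its mean over the 8 arrays (blue 3M, orange 29M; the symbol gives the slide). Replicate 1 of 3M stands at 0.74 for the IRF1 and interferon gamma targets, above all 29M arrays, and at -0.28, among the other 3M arrays, for the STAT3 targets.

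For both called members the genes with the most similar pattern were sought among 16440 genes well above background on all arrays of at least 1 group, by the root mean square difference over the 8 arrays between log2 values centred on their own means. Nearest to Irf7 were 1700012P22Rik (0.0730), Pld4 (0.0884) and Slfn8 (0.116), all 3 called higher at 29M, by 0.67, 0.64 and 0.68. Nearest to Irf8 were Parp9 (0.0852), Exoc3l4 (0.0899) and Lyl1 (0.0914). Exoc3l4 and Lyl1 were called higher, by 0.58 and 0.55, and Parp9, also in the list of ISGF3 targets, changed by 0.54 with an adjusted p of 0.115 in limma. The distances describe these 8 arrays. Genes chosen for a pattern close to that of a called member must show a similar change, so their calls are no separate result.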

How the data were processed

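RNA of 8 hippocampi, 4 at 3M and 4 at 29M, had been hybridised to 1-colour arrays. Groups and replicate numbers were read from the sample titles. The authors deposited the scanner output of each array, linear intensities made per the file headers with Feature Extraction 10.7.3.1 on a mouse 4x44K design. The software, scanner and design in the headers are not those of the study's methods; the headers were taken as right. The deposited table of the whole series holds intensities whose 8 columns equal an array's mean local background (tolerance 0.001), 7 of them of another sample's array. It was not used.

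Control spots and outlier spots (127 to 190 per array) were left out. The median spot intensities were normalized by variance stabilisation (generalized log2, own implementation in R 4.3.3, quantile 0.9, 7 iterations; the original package was not installed), and spots of a probe were averaged. In limma 3.58.1 a linear model for age was fitted to 39408 probes with at least 3 usable arrays per group, with Benjamini-Hochberg adjustment and the thresholds of the study's methods, an adjusted p of 0.1 and a log2 change of 0.5. The limma p-values weigh the difference between the ages against the spread between the arrays of a group, drawn towards that of all probes. Accessions gave symbols for 66.1% of probes. Of several probes of a gene, the brightest on average stands for it. The normalization, the linear model and the calling rule were tested on simulated data, and the other steps were not. There 53% of true log2 changes of 0.6 and 85% of those of 1, either way, were recovered, and 7.38% of all calls fell on unchanged probes. The changed probes of the simulation were brighter than the median probe. Arrays give no read depth, so the number of arrays, the spread between them and the brightness of a probe set the precision. Slides were taken from the headers (slide 1: 3M replicate 1, 29M replicates 3 and 4; slide 2: replicate 2 of both; slide 3: 3M replicates 3 and 4, 29M replicate 1). Named were all members, the called genes of each list (at most 4 with values, the rest by name where they are few) or else the gene with the largest change, and the 3 genes most like each called member. The members and lists were chosen with earlier results of these data known, so counts over them are descriptions. 1 gene of the list of further IRF and STAT genes is not reported here. Alternatives covered background correction, normalization, outlier spots, dim probes, slide and replicate blocks (statmod 1.5.0 for the random block), the variance prior, array weights, thresholds, the choice of probe and each array left out.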

Additional observations from a re-analysis of the deposited data

Results flagged for a closer look

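In 48 groups of 4 arrays, the farthest array was compared with the others by its gap to the nearest of them as a share of the group's range. The gap was wide in 4 groups, where chance gives 2.4 (about 1 in 20). Stat2 on replicate 2 of 29M read 13.15 against 12.93 to 12.96 on the other 29M arrays (share 0.841). The microglial list on replicate 4 of 29M had a mean level of -0.02 against 0.24 to 0.27 (share 0.886). The neuronal list on replicate 1 of 3M was at -0.17 against 0.04 to 0.07 (share 0.851). The choroid plexus list on replicate 2 of 29M was at -0.23 against 0.09 to 0.14 (share 0.846).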

How the results depend on the processing

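The direction of Irf1, Irf5, Irf7, Irf8, Irf9 and Stat3 held in all 20 alternatives run for them. Irf7 lost its call in 7 and Irf8 in 10 of these, with adjusted p of 0.0134 to 0.159 and of 0.00996 to 0.180, and Irf5 gained one in 4 (0.0205 to 0.248). The members and the member probes called higher were 1 with the processed signal minus the 75th percentile, 0 with slide as a fixed block, 0 at an adjusted p under 0.05, and 0 to 3 with an array left out (the 3 without replicate 1 of 3M). Replicate numbers did not pair the samples (correlations of deviations of same-numbered arrays -0.244, 0.208, -0.231 and 0.0715), and with the replicate block 0 members, 266 probes higher and 145 lower over the array, 7 ISGF3 targets, 1 sensor, 0 IRF1 and interferon gamma targets and 0 IRF8 partners were called. Over the array 491 probes were higher and 319 lower, 811 and 625 with array weights, 266 to 824 and 135 to 640 with an array left out, and 767 higher with slide 1 left out, an alternative added after the data were seen. ISGF3 targets called were 7 with the fixed slide block or at 0.05 and 6 to 20 with an array left out. Sensors were 0 with the 75th percentile or the slide block, 1 at 0.05 and 0 to 4 with an array left out. IRF1 and interferon gamma targets were 0 with the 75th percentile, 1 with the slide block or at 0.05, 7 with array weights, 8 with slide 1 left out and 0 to 11 with an array left out. IRF8 partners were 0 with either use of the processed signal or at 0.05 and 0 to 1 with an array left out. Ligands called were 1 with either use of the processed signal or no fold threshold and 0 to 1 with an array left out (the 1 without replicate 4 of 3M), receptors 2 with array weights or slide 1 left out and 1 to 2 with an array left out (the 2 without replicate 1 of 3M), and STAT3 targets lower 1 with no fold threshold. Irf2 turned to -0.0895 with array weights and -0.0929 with slide 1 left out, and ranged from -0.31 to 0.36 with an array left out. Irf3 turned to -0.0183 with the 75th percentile and -0.00712 after variance stabilisation of the processed signal, and ranged from -0.00707 to 0.16 with an array left out, and Stat2 from -0.0251 to 0.0631. Irf1 minus Irf2 turned to -0.00701 and -0.00387 with the processed signal (-0.21 to 0.73 with an array left out), and Irf8 minus Irf5 to -0.00334 with the 75th percentile (-0.0132 to 0.145). The cause of these shifts was not tested. The dim probes of Irf7, Irf1 and Stat3 limit what can be said of them, and 4 arrays per group leave wide intervals for Irf2.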
